A study of Mus musculus with 28 samples.

Results

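The genes described here are 42 genes of DNA replication and of entry into S phase, taken by symbol from the 30608 genes of a table of normalized read counts and not by their values. They were grouped by role into 11 licensing genes, 6 genes of helicase activation, 7 of priming and the replicative polymerases, 8 of the sliding clamp, its loader and the processing of Okazaki fragments, 3 of the single-strand binding complex RPA, 4 of deoxynucleotide supply and 3 G1/S regulators. All 42 were in the table and passed the filter for testing, which asked for 10 normalized counts in at least 3 libraries. Each was also found in every library, from a lowest value of 237 normalized counts for Fen1 to a highest of 13204.3 for Mcm2, so none passed the filter only through the groups in which it was high.

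Replication starts from origins that are loaded with the MCM helicase during G1. The origin recognition complex (ORC), Cdc6 and Cdt1 place the ring of Mcm2 to Mcm7 on DNA, and geminin (Gmnn) holds Cdt1 back once S phase has begun. Mcm10, Cdc45 and the GINS complex then turn the ring into an active helicase, polymerase alpha with primase lays primers, and polymerases delta and epsilon extend them with the clamp PCNA. Many of these genes are known targets of E2F transcription factors, which are released when cyclin D and cyclin E kinases phosphorylate the retinoblastoma protein, and their transcripts are most abundant around the G1/S transition in cycling cells such as proliferating T cells.

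The cells were CTLL2, a mouse cytotoxic T-cell line that needs interleukin-2 to grow, listed under the strain C57BL/6. All groups had 24 h of growth in complete medium and then received fresh complete medium. Untreated cells were sampled at 0 h (n = 4 libraries) and at 0.5, 2, 4 and 8 h (n = 3 each), and at each of these later times there were also 3 libraries of cells given 0.2 mg/ml of exosomes from the mouse melanoma line B16F0, suspended in PBS. Replicates are called biological in the series. No label describes separate cultures, so p-values measure the spread between these libraries, which may be partly technical. The labels do not say whether untreated cells received PBS alone, and CTLL2 is a cultured line, not primary T cells.

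The labels place 9 libraries, 1 of each group, in batch 1 and 19 in batch 2, without saying what a batch was. Recovered reads ran from 6072984 to 24085812 per library, and intervals cover the spread between libraries only. All 12 cytotoxic T-cell markers checked were present in every library, although Cd8a stayed between 46.8 and 162 normalized counts. The summed level of 8 melanocyte markers was 59.8 to 175.5 in the exosome-treated and 7.4 to 20.7 in the untreated libraries. Tyrp1 reached 76.3 and Dct 35.3, while Tyr and Mlana, which were at 0 in 17 and 14 of the 28 libraries, reached 6.6 and 10.1. The part of these transcripts in the exosome comparison was not tested. Skeletal muscle transcripts set 8 libraries apart: Acta1 was above 20 normalized counts, and the summed level of the 12 muscle markers was 1713.6 to 4633.9 against 898.4 to 1330.8 in the other 20. Tnni2 and Tnnt3, also of muscle, were at 0 in 17 libraries. Ckm, Mylpf, Eno3, Atp2a1 and Actn3 of the same list were above 0 in every library, with Ckm at 398 to 1042.3 and Eno3 at 278.1 to 548.9. Of 8 macrophage and dendritic markers Itgax, Cd68 and Cd14 were present in every library and the other 5 at 0 in 9 to 25, and of 5 B-cell markers Pax5 was present in every library, at 7.8 to 47.3. The 8 were exosome 0.5 h replicates 1 and 3, untreated 2 h replicate 2, exosome 2 h replicate 2, exosome 4 h replicates 1 and 2, and untreated 8 h replicates 1 and 2. Libraries also differed in how their values followed transcript length: the slope of log2 value on log2 length, relative to the mean library, was -0.23 in untreated 8 h replicate 1, between -0.13 and -0.094 in untreated 2 h replicate 1, exosome 2 h replicate 2, untreated 8 h replicate 2 and exosome 4 h replicate 1, and -0.017 to 0.066 in the other 23. The share of genes at 0 was 15.7% for untreated 4 h replicate 1 and 22% for exosome 8 h replicate 3, against 27.8% to 39.9% elsewhere.

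Promoter sequence did not itself enter the choice of the genes, though many of them are known E2F targets. RefSeq promoters (GRCm38.p6, 300 bases, 250 before the start and 50 from it on) were found for 33 of the 42 genes, in 37 windows. An E2F element, searched on both strands as TTTCCCGC, TTTCGCGC, TTTGCCGC or TTTGGCGC, was in 13 of the 37 windows (35.1%) and in 744 of all 32851 promoters (2.26%). CCAAT, the letters bound by NF-Y, was in 21 of the 37 (56.8%) and in 37.41% of all promoters, and TTTGAA or TTCGAA, the cell-cycle homology region of G2/M promoters, in 6 of the 37 (16.2%) and in 19.23% of all. Letter matches do not show binding. The upstream sequences of 6 genes are printed because they carry the E2F letters, in capitals, and belong to the licensing and polymerase genes that the results turn on. The first 5 genes passed the test of the comparison of late with early libraries described below, and Orc1 did not. They read 5′ to 3′ on the gene's strand and end at the base before the start given by RefSeq. For Cdc6, Mcm7 and Orc1 that start lies inside the span of the gene in the GENCODE annotation used for the coordinates of genes. Cdc6 lies on the plus strand at chr11:98907901-98908150, with the match beginning 138 bases before the start. Mcm5 is on the plus strand at chr8:75109259-75109508, with overlapping matches at 153 and 149 bases. For Mcm6, on the minus strand at chr1:128359706-128359955, matches begin at 110, 106 and 47 bases. Mcm7 (minus, chr5:138171884-138172133) has one at 165 bases, Pola1 (minus, chrX:93632156-93632405) one at 138 bases and Orc1 (plus, chr4:108579204-108579453) one at 27 bases.
Cdc6: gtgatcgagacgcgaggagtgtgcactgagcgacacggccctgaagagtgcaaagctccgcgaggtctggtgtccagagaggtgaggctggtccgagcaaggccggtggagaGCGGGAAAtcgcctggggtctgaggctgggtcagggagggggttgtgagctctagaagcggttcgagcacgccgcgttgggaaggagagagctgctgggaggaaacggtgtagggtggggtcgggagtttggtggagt
Mcm5: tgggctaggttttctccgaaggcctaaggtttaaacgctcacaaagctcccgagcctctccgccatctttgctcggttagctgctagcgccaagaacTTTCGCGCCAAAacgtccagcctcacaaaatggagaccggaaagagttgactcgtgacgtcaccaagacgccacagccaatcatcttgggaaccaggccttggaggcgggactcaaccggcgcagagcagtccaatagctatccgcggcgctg
Mcm6: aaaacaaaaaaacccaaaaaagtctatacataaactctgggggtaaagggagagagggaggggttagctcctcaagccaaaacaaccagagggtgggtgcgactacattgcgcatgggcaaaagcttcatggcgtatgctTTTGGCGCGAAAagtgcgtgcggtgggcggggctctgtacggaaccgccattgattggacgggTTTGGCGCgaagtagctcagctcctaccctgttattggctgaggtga
Mcm7: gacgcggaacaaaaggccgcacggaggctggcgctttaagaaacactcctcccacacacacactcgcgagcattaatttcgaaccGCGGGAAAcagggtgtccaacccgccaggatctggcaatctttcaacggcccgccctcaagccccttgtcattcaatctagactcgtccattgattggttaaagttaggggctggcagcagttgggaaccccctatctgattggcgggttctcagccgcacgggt
Pola1: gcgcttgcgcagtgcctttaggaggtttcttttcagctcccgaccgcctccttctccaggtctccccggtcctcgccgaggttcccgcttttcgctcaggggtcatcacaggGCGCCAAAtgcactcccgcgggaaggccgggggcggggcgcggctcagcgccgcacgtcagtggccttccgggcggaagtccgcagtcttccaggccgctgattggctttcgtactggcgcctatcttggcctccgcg
Orc1: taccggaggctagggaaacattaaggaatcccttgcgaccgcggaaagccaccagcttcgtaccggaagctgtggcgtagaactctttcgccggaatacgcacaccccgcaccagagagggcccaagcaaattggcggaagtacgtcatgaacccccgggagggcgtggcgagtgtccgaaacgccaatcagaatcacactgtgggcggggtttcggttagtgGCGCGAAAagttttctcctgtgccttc

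Levels were compared between genes as normalized counts per kilobase of merged exons in the 4 untreated 0 h libraries. Rrm2, the small subunit of ribonucleotide reductase, had the highest level, at 2923.9 ± 135.8 (SD, n = 4). The MCM genes came next: Mcm6 was at 1766.9 ± 58.6, Mcm2 at 1517.8 ± 86.9 and Mcm5 at 1501.1 ± 84.4. On this scale the gap between Mcm2 and Mcm5 was 0.19 of their SD, within their spread, but the order depends on the length used: per kilobase of the principal transcript Mcm2 was at 3131.9, Mcm6 at 2833.1 and Mcm5 at 1772.8, and Rrm2 was again highest, at 3694.6. Pcna, at 999.0 ± 30.5, led the clamp genes. At the low end per kilobase of merged exons stood Cdc6 (123.8 ± 9.1), Pola2 (122.4 ± 10.1), Pola1 (114.6 ± 3.5) and the primase subunit Prim2 (92.5 ± 6.0). Per kilobase of the principal transcript these genes were at 253.0, 419.3, 188.9 and 278.0, and the lowest were Gins2 (163.9), Ccne2 (161.1) and Fen1 (141.0). By either length the loader Cdc6 was at a lower level than any of the MCM2-7 genes it loads. By role, the median level per kilobase of merged exons was 840.4 for licensing, 474.4 for RPA, 412.1 for deoxynucleotide supply, 399.5 for the clamp group, 229.0 for polymerases, 226.8 for helicase activation and 192.7 for the G1/S regulators. Some levels are uncertain because exons overlap those of genes on the other strand and no strand-specific counting is stated. The overlap covers 84.2% of the Fen1 exons, 67.3% of Gins2, 17.4% of Ccne2, 15.1% of Rfc2, 12.7% of Rfc4, 10.8% of Orc1 and 10.7% of Rfc5, and Pcna and Tyms have named pseudogenes.

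**Figure D1:**
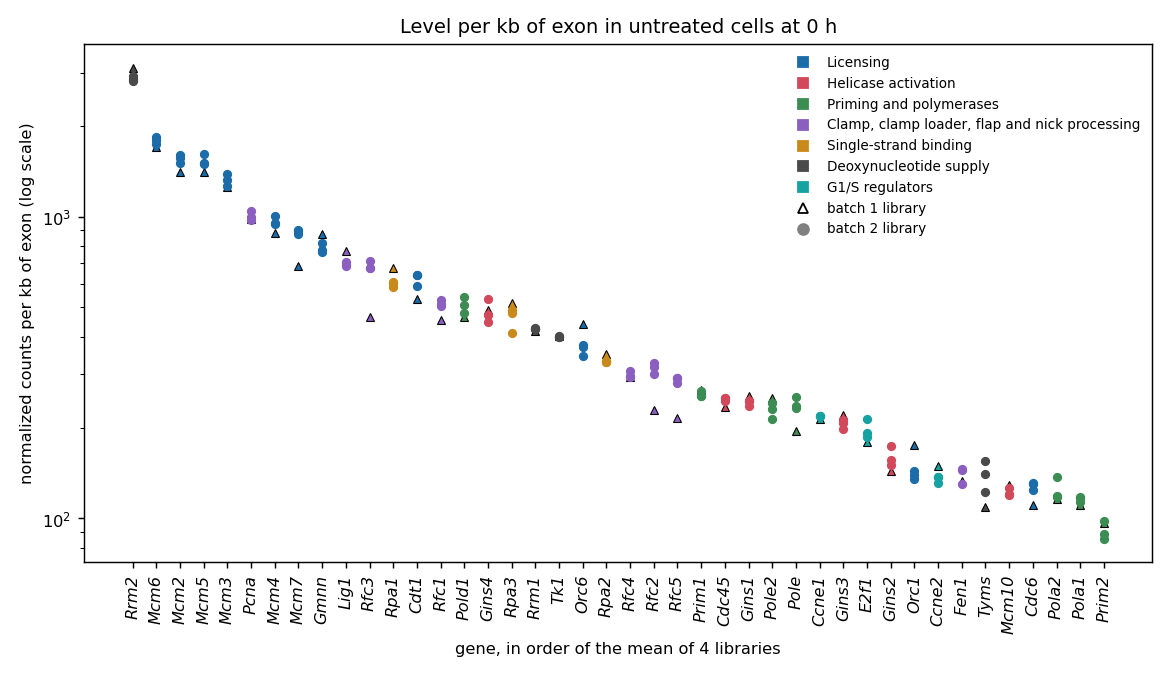
Normalized counts per kilobase of merged exons (log axis) of the 42 genes in the 4 untreated 0 h libraries, 1 point per library, coloured by role, in order of the mean. Triangles are the batch 1 library and circles the 3 batch 2 libraries. On this scale Rrm2 stands highest at a mean of 2923.9 and Prim2 lowest at 92.5; per kilobase of the principal transcript the lowest is Fen1.

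The genes changed together late in the time course of batch 2. In batch 2, 33 of the 42 genes were higher at 4 and 8 h than at 0.5 and 2 h, with both arms pooled, and none was lower (limma, adjusted p below 0.05). That is 78.6% of the genes, where 9.73% of all 14828 genes tested were called higher and 21.7% in either direction. Values were above 0 for 42 of 42 genes with a median log2 fold change of 0.22, while over all genes the median was 0.001 and 50.2% were above 0. The rises were small, from 0.13 in Cdt1 to 0.44 in Gins2 among the genes called. The split into these periods was made after the values had been seen, so its p-values are not independent of that choice. In bulk RNA a larger share of cells in S phase and more transcript per cell cannot be told apart.

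Licensing genes rose in 9 of 11 cases. Cdc6 (ENSMUSG00000017499.15, chromosome 11 from 98907801 to 98923940 of GRCm38, plus strand) was at 648 to 684 normalized counts in the 3 batch 2 libraries of 0 h. At 0.5 h it was at 637 and 653.9 in untreated and 645.4 and 584 in exosome-treated cells, and at 2 h at 608.1 and 606.6 and at 652.8 and 686.5. At 4 h it reached 822.4 and 862.2 in untreated and 830.6 and 834.5 in treated cells, and at 8 h it stood at 779 and 853.6 and at 787.8 and 766.4. All 8 late libraries were thus above all 8 early ones and above the 0 h libraries, with no gap between the arms at 4 h. The change was 0.37 ± 0.06 (log2 ± SE, 28.8% higher, adjusted p = 6.2e-05).

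Among the helicase subunits, Mcm5 (ENSMUSG00000005410.5, chromosome 8 from 75109569 to 75128439) ran from 5711.4 to 6166.6, median 5803.9, in the 8 early batch 2 libraries and from 6723.5 to 7907.9, median 7173.1, in the 8 late ones. The groups did not overlap, and the change of 0.30 ± 0.04 had the smallest adjusted p of the 42 genes (3.438e-06). Mcm2 went from 10115 to 11162.3 early to 12226.3 to 13204.3 late, and Mcm3 from 4574.7 to 4767.2 to 5286.7 to 5922.8, again without overlap. Mcm4, Mcm6 and Mcm7 were called too, with changes of 0.22, 0.24 and 0.27. Gmnn, the inhibitor of Cdt1, rose by 0.24 ± 0.07 and Cdt1 itself by 0.13 ± 0.04 (adjusted p = 0.0295), the smallest change called in this comparison. The ORC subunits were the 2 licensing genes that missed the threshold: Orc1 was at 0.12 ± 0.06 (adjusted p = 0.188) and Orc6 at 0.19 ± 0.08 (adjusted p = 0.0949).

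Helicase activation genes rose in 5 of 6 cases. Gins2, a subunit of the 4-part GINS complex, went from a median of 618 (554.6 to 682.2) to 802.2 (692.7 to 1102.6) with no overlap, a change of 0.44 ± 0.09 (adjusted p = 0.00125). The highest value, 1102.6, was in untreated 8 h replicate 2, which also carried muscle transcripts. Its counts may include reads of Gse1, which covers most of its exons on the other strand. Gins1 (0.30) and Gins4 (0.29) were called and Gins3 was not (0.14, adjusted p = 0.0723). Cdc45, the partner of MCM and GINS in the active helicase, moved from 828.8 to 919.3 early to 939.2 to 1103.3 late, and Mcm10 rose by 0.21.

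Of the priming and polymerase genes 5 of 7 rose. Pola1, the catalytic subunit of polymerase alpha, changed by 0.32 ± 0.06 (adjusted p = 0.000782), and Pola2, Prim1 and Prim2 by 0.21, 0.20 and 0.26. Pold1, the catalytic subunit of polymerase delta, rose by 0.18. The 2 polymerase epsilon genes did not pass: Pole was at 0.02 ± 0.10 and Pole2 at 0.06 ± 0.06. Pole ran from 2596.1 to 2893.2 in the early and from 2173.4 to 3250.5 in the late libraries, so its late values lay on both sides of the early ones. The lowest 2 late values of Pole, 2173.4 and 2259.5, were in exosome 4 h replicate 1 and untreated 8 h replicate 2, the late batch 2 libraries with muscle transcripts.

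The clamp group had 6 of 8 genes called higher. Pcna (ENSMUSG00000027342.14, chromosome 2 from 132249162 to 132253314, minus strand) went from 2322.8 to 2491.6, median 2425.2, to 2556.5 to 3108.1, median 2802.6, a change of 0.22 ± 0.05 with no overlap. Among the subunits of the clamp loader RFC, Rfc4 changed by 0.39 ± 0.10 (adjusted p = 0.00529), Rfc3 by 0.29 and Rfc5 by 0.14, whereas Rfc1 (0.15, adjusted p = 0.0545) and Rfc2 (0.16, adjusted p = 0.0913) missed the threshold. The flap nuclease gene Fen1 and the DNA ligase gene Lig1 rose by 0.26 and 0.16.

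Of the RPA genes, Rpa2 rose by 0.39 ± 0.07 (adjusted p = 0.000179) and Rpa1 by 0.16 ± 0.03, while Rpa3 was at 0.16 ± 0.12 (adjusted p = 0.341). In deoxynucleotide supply 3 of 4 genes rose. Tyms, thymidylate synthase, was between 796.7 and 917.4 early and between 980.9 and 1279.8 late, a change of 0.36 ± 0.07 (adjusted p = 0.000993). Rrm1, the large subunit of ribonucleotide reductase, rose by 0.28 from a range of 4446.7 to 5001.4 to one of 5411.6 to 6107.5, without overlap. Rrm2, its more abundant partner, was between 7346.3 and 7862.1 early and between 7322.9 and 8996.0 late, and its change of 0.09 ± 0.07 was not called. The thymidine kinase gene Tk1 rose by 0.18.

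All 3 G1/S regulators rose in batch 2. Ccne1 and Ccne2, the E-type cyclins, changed by 0.25 ± 0.07 and 0.27 ± 0.08 (adjusted p = 0.0129 and 0.0132), and E2f1, itself an E2F target gene, by 0.15 ± 0.05 (adjusted p = 0.0346). Ccne1 lay between 522.2 and 703 early and between 682.3 and 809.8 late, so its ranges overlapped. Across the 42 genes, 16 had every late library of batch 2 above every early one (38.1%, where 2.58% of all genes tested did): Cdc6, Mcm2, Mcm3, Mcm5, Mcm7, Mcm10, Cdc45, Gins2, Pcna, Rfc3, Rfc4, Lig1, Rpa1, Rpa2, Rrm1 and Tyms. Leaving out the libraries with muscle transcripts gave 35 genes called higher (10.4% of all genes), and removing each library's trend with transcript length gave 31 (8.42% of all).

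**Figure D2:**
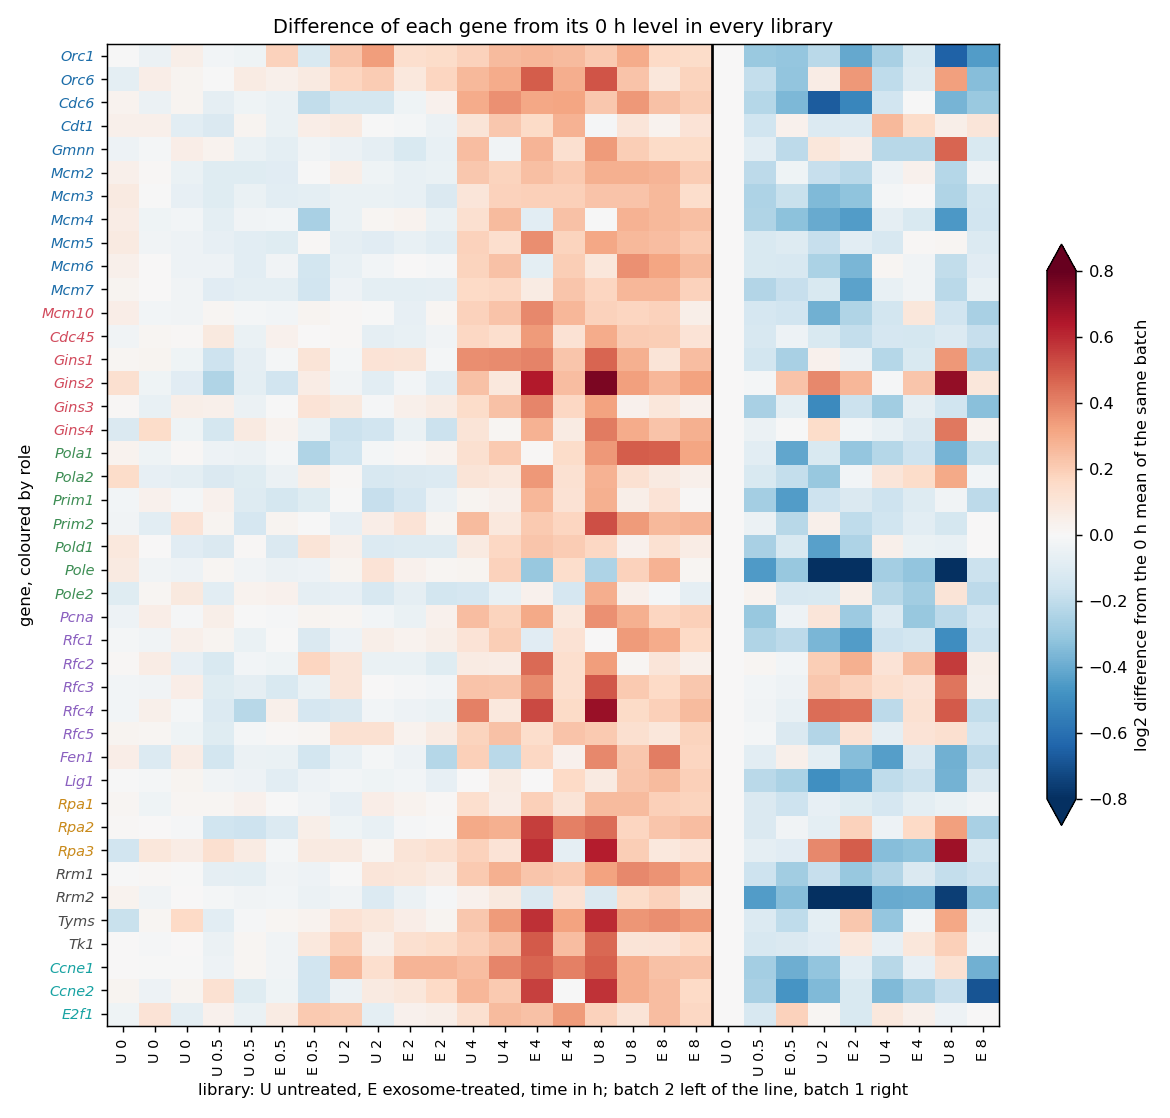
Log2 difference of each of the 42 genes (rows, coloured by role) from its 0 h mean in the same batch, in each of the 28 libraries (columns, U untreated and E exosome-treated, with the time in h). Batch 2 is left of the line, where the median over the genes is between -0.06 and 0.01 in libraries up to 2 h and between 0.17 and 0.30 in those of 4 and 8 h; in batch 1, to the right, every later library has a median below 0.

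**Figure D3:**
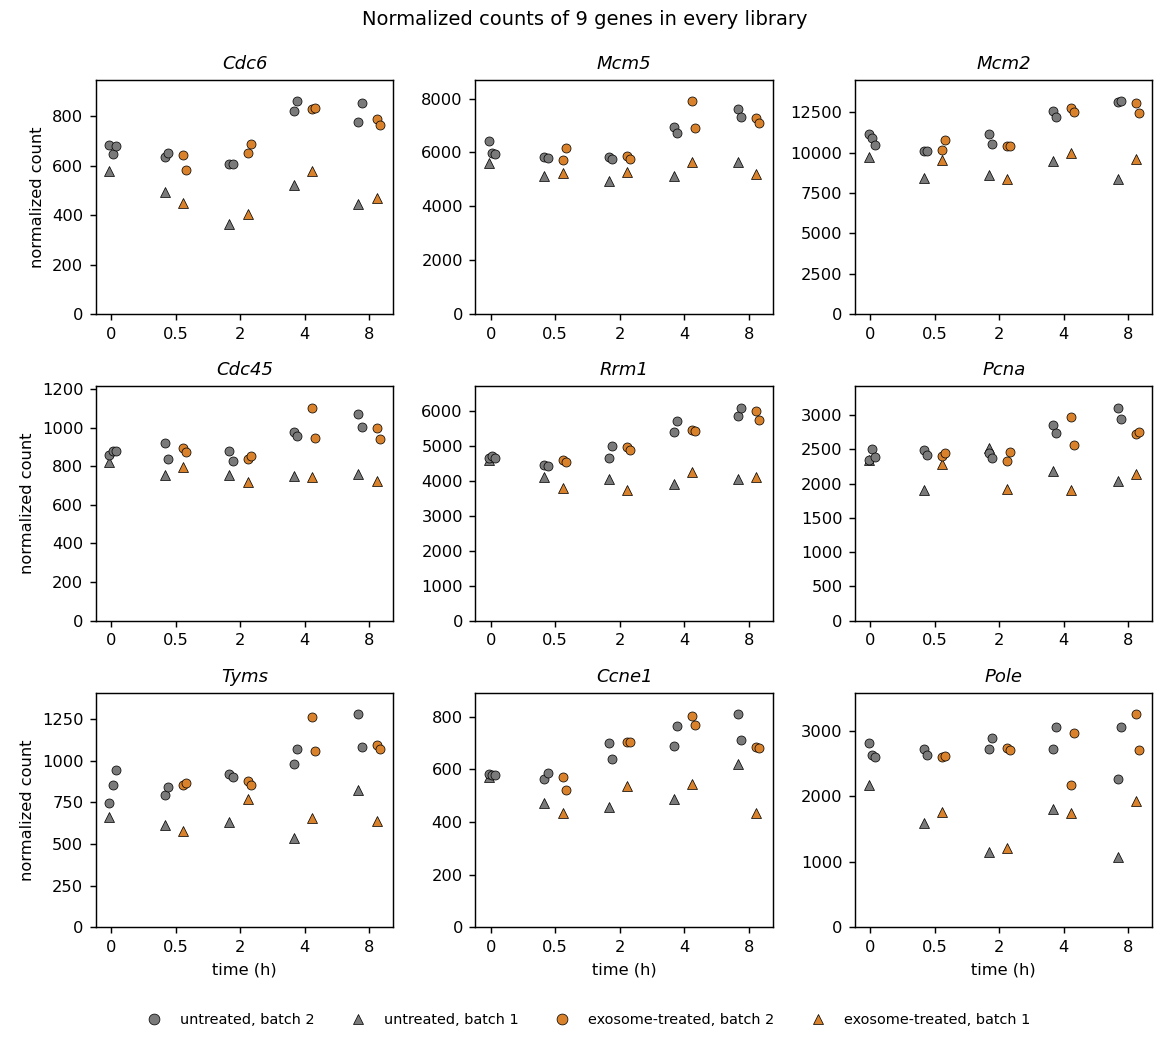
Normalized counts of Cdc6, Mcm5, Mcm2, Cdc45, Rrm1, Pcna, Tyms, Ccne1 and Pole in every library against time in h, grey for untreated cells, orange for exosome-treated cells, circles for batch 2 and triangles for batch 1. In batch 2 Cdc6 is at 584 to 687 normalized counts at 0.5 and 2 h and at 766 to 862 at 4 and 8 h, with both arms intermingled, and Pole shows no such step.

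The changes are given here by the E2F letters, as a description without a test. Of the 13 genes with them in the promoter, 10 were called higher and the median change was 0.24. Of the 20 with a promoter but without them, 16 were called and the median was 0.21. The 9 genes with no promoter in the table had 7 calls and a median of 0.26. Among the genes whose sequences are printed above, Cdc6 and Mcm5 were at 0.37 and 0.30 and Orc1, with 1 match close to its start, at 0.12.

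In batch 1, with 1 library per group, the same comparison of 4 late with 4 early libraries called none of the 42 genes (limma; 0.587% of all genes were called in either direction). At an unadjusted p under 0.05 there were 7 genes, edgeR also called none, and DESeq2 called 4. The share of all genes at that unadjusted p is not given, here or below, so such counts are no result about the 42. The median was 0.06, and 32 of 42 values were above 0. Smallest in adjusted p were Pola2 (0.29 ± 0.08, adjusted p = 0.0756) and Pold1 (0.25 ± 0.06, adjusted p = 0.076), followed by Cdt1 (0.22 ± 0.06, adjusted p = 0.0997). Cdc6, at 493.7, 450.9, 365.8 and 403.8 in the early libraries and 520.6, 579.4, 447.2 and 471.4 in the late ones, was at 0.24 ± 0.08 (adjusted p = 0.206), with ranges that overlapped. Mcm5 was at 0.07 ± 0.05 and Pcna at -0.05 ± 0.07, beside 0.30 and 0.22 in batch 2. Late values lay above all early ones for Cdt1 and Pold1 only, 4.76% of the genes against 2.08% of all genes.

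The difference in this change between the batches was tested directly. None of the 42 genes was called (limma; 0.0337% of all genes were in either direction), with 15 at an unadjusted p under 0.05, none by edgeR and 2 by DESeq2. The median difference was -0.15 (batch 1 minus batch 2), and the smallest adjusted p was 0.0945 for Mcm5, at -0.23. Untreated 8 h replicate 1, the batch 1 library with the steepest length slope, moved these counts: without it 16 genes differed between the batches (13.6% of all genes did) and 4 rose in batch 1 (1.13% of all). Without all libraries with muscle transcripts, 11 genes differed between the batches (10.8% of all), and 8 were called in batch 1 (6.33% of all), 7 of them higher. The early libraries left in batch 1 were untreated 0.5 h replicate 1 and untreated 2 h replicate 1. The late ones were untreated 4 h replicate 2 and exosome 8 h replicate 1. Treated cells were thus only among the late libraries, so time and treatment cannot be told apart in these batch 1 values.

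**Figure D4:**
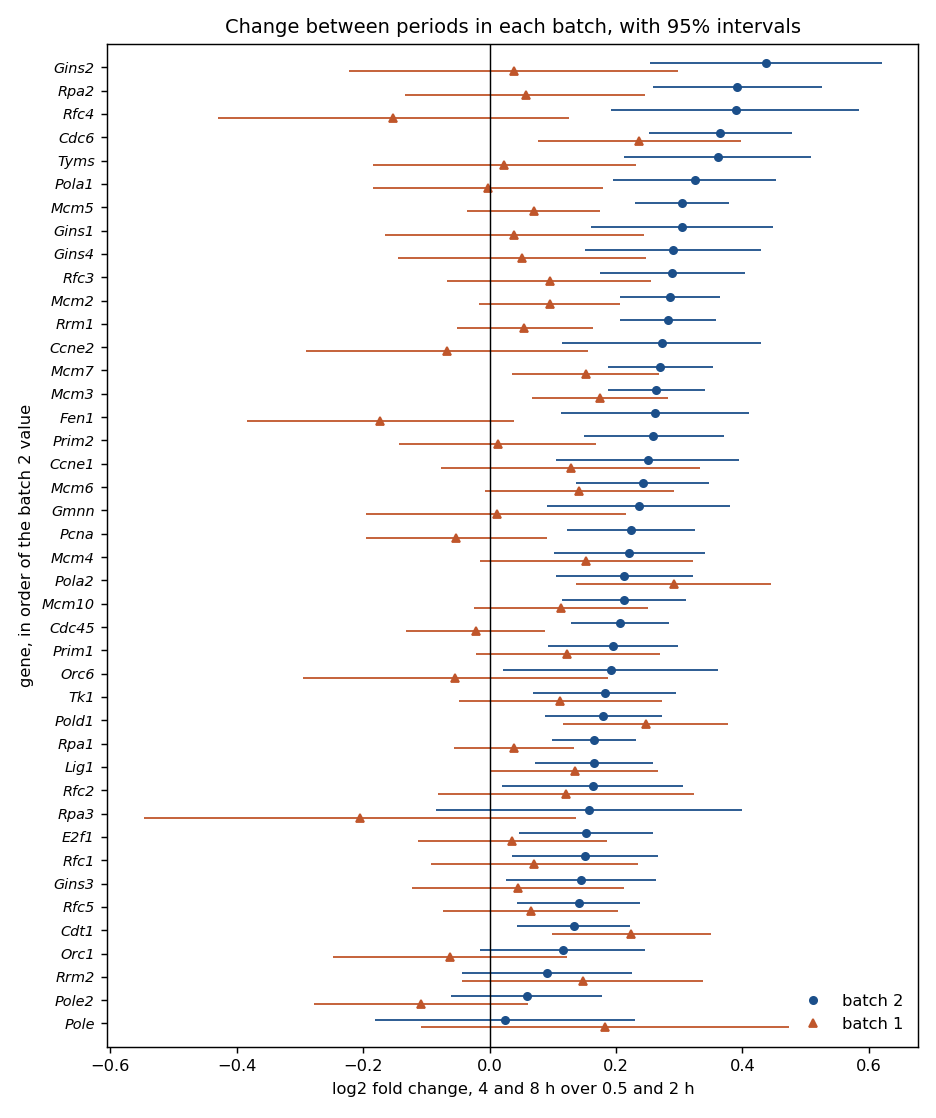
Log2 fold change of the 42 genes between the libraries at 4 and 8 h and those at 0.5 and 2 h (x axis), with 95% intervals, in batch 2 (circles, 8 against 8 libraries) and batch 1 (triangles, 4 against 4). Every batch 2 value is above 0, up to 0.44 for Gins2, and the batch 1 values spread around a median of 0.06.

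The libraries at 2 and 4 h were also compared within each batch. In batch 2, 26 of the 42 genes had all 4 libraries at 4 h above all 4 at 2 h (61.9%, against 7.11% of all genes), and in batch 1, with 2 libraries at each time, 15 did (35.7%, against 31.6%). The batch 1 share was close to that of all genes and is no result about the 42. Both held for 9 genes (21.4%, against 2.27%), a count that follows from the batch 2 share: Cdc6, Cdt1, Mcm2, Mcm3, Mcm7, Mcm10, Pola2, Pold1 and Lig1. Cdc6 went from 365.8 and 403.8 at 2 h to 520.6 and 579.4 at 4 h in batch 1. In the model with all groups, Cdc6 was the 1 gene called in untreated cells at 4 h against 2 h (0.48 ± 0.10, adjusted p = 0.017; 0.135% of all genes were called higher and 0.499% in either direction). In exosome-treated cells Mcm10 (0.34 ± 0.07, adjusted p = 0.0159) and Mcm3 (0.29 ± 0.07, adjusted p = 0.047) were called, where 0.472% of all genes were called higher and 1.19% in either direction, and Cdc6 was at 0.38 (adjusted p = 0.0553).

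Against the untreated 0 h libraries, none of the 42 genes was called at 0.5, 2 or 4 h by limma, edgeR or DESeq2. The shares of all genes called there, in either direction, were 0.189%, 1.83% and 1.19%. Counts at an unadjusted p under 0.05 were 0, 4 and 4. At 0.5 h 41 of the 42 values were below 0, with a median of -0.07. At 2 h the lowest values were in Rrm2 (-0.29) and Cdc6 (-0.28, adjusted p = 0.137), and at 4 h the median was 0.10. Within batch 2 alone 7 genes were called higher at 4 h, where 2.11% of all genes were. The median there was 0.168, with 40 of the 42 values above 0. In batch 1, with 1 library per group, the median at 4 h was -0.152, with 7 of the 42 values above 0.

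At 8 h 17 of the 42 genes were higher in untreated cells than at 0 h and none was lower. That is 40.5%, where 15.9% of all genes were called higher and 31.7% in either direction. The median was 0.26 within batch 2, with 41 of the 42 values above 0. In batch 1, with 1 library per group, it was -0.056, with 18 of the 42 above 0. Gins2 changed by 0.59 ± 0.12 (50.3% higher, adjusted p = 0.0023), Rpa3 by 0.51 ± 0.16 (adjusted p = 0.0203), Rfc4 by 0.44 ± 0.16 (adjusted p = 0.0335) and Tyms by 0.44 ± 0.11 (adjusted p = 0.00656). Gins1, Gins4, Rfc3 and Orc6 followed at 0.37 to 0.38, and Gmnn, Ccne1 and Mcm5 rose by 0.34, 0.33 and 0.21. Not called were Cdc6 (0.10), Cdt1 (0.05), Mcm3 (0.09), Orc1 (-0.01), Cdc45 (0.15), Pcna (0.17), E2f1 (0.09), Ccne2 (0.27, adjusted p = 0.12), Rrm2 (-0.20) and Pole (-0.32).

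Gins2 illustrates how these values were distributed over the libraries. It was at 589.8, 714.1, 638.6 and 613.8 at 0 h and at 959.3, 1102.6 and 822.4 in the untreated 8 h libraries, which all lay above the 0 h ones. The 2 highest were replicates 1 and 2, which carried muscle transcripts and the length slopes of -0.23 and -0.11. Leaving out the libraries with muscle transcripts left only replicate 3 of the untreated 8 h group, so no count is given. In that library the median log2 difference of the 42 genes from the 0 h mean of batch 2 was 0.226. Without untreated 8 h replicate 2 alone 6 genes were called (6.39% of all genes were called higher). Without replicate 1 alone 10 were (6.58% of all).

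Transcript length went along with the 8 h values. Of the 13 genes with a principal transcript under 2 kb, 10 rose, with a median of 0.34, and of the 17 at 3 kb or more, 5 did, with a median of 0.13. The rank correlation of change with length was -0.47 across the 42 genes and -0.34 across 14779 genes, which share the same libraries and are not independent. With each library's length trend removed 9 of the 42 genes were called (8.61% of all genes were called higher), and with the length slope as a term in the model 1 was, Mcm6 (0.31, adjusted p = 0.0449; 0.196% of all genes were called higher). The rank correlation across the 42 genes at 8 h was 0.2 with the trend removed and 0.5 with the slope in the model. With the trend removed 1 of the 13 short and 8 of the 17 long genes rose, so the genes called were partly others. In the batch 2 comparison of late with early libraries, the rank correlation with length was -0.08 across the 42 genes and -0.19 across all. There 10 of 13 short and 13 of 17 long genes were called. With the length trend removed the correlation across the 42 genes was 0.39, and with the slope in the model 0.41.

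**Figure D5:**
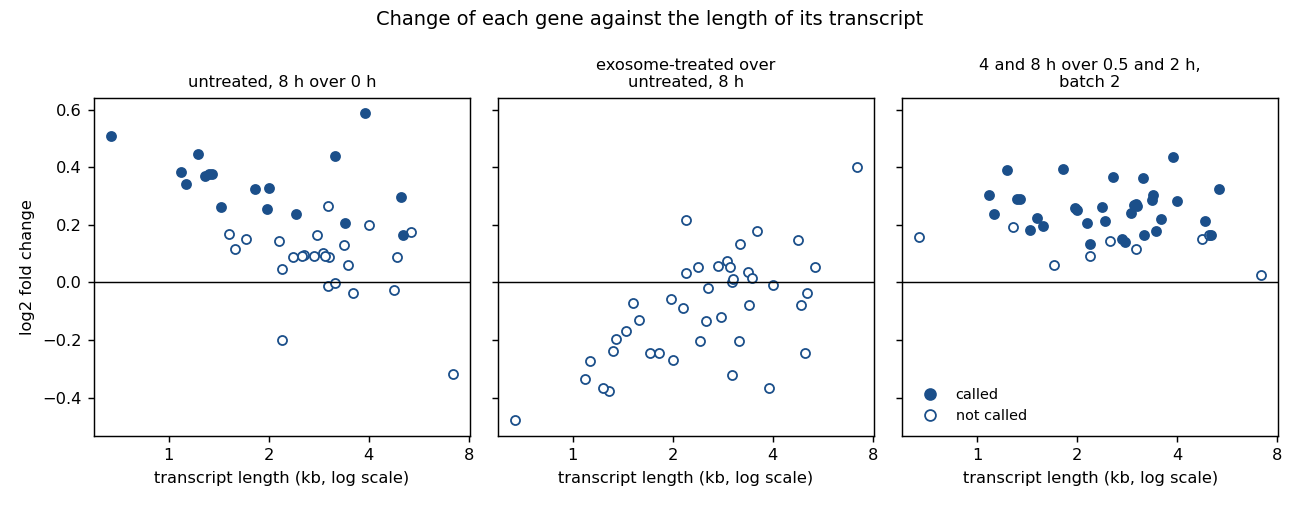
Log2 fold change of the 42 genes (y axis) against the length of the principal transcript in kb (log axis) for untreated cells at 8 h over 0 h, for exosome-treated over untreated cells at 8 h, and for 4 and 8 h over 0.5 and 2 h in batch 2; filled points passed the test. The values fall with length in the left panel (rank correlation -0.47), rise with it in the middle one (0.55) and give a rank correlation of -0.08 in the right one.

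Within each arm, the libraries at 0.5 h served as a second baseline. In untreated cells at 4 h, Cdt1 alone was called (0.28 ± 0.06, adjusted p = 0.0165; 0.668% of all genes were called higher and 2.56% in either direction). In exosome-treated cells at 4 h, 6 genes rose (14.3%, where 1.03% of all genes did and 3.5% were called in either direction): Ccne1 by 0.46 ± 0.10, Cdc6 by 0.41 ± 0.10, Rpa2 by 0.40 ± 0.10, Prim1 by 0.32 ± 0.08, Mcm10 by 0.30 ± 0.07 and Tk1 by 0.30 ± 0.08, with adjusted p from 0.00584 to 0.0343. Each of the 6 was higher within batch 1, with 1 library per group, and within batch 2, but so were 31 of the 42 genes. The calls came from the same libraries, so this adds no support to them. Leaving out the libraries with muscle transcripts left only exosome 0.5 h replicate 2 and exosome 4 h replicate 3, so no count is given. Without exosome 0.5 h replicate 2 or exosome 4 h replicate 1 alone 1 gene was called (0.425% and 0.317% of all genes were called higher). At 8 h, 22 genes were higher in untreated cells (52.4%, against 13.5% of all genes and 28% in either direction), led by Gins2 (0.71), Rfc4 (0.56), Gins1 (0.49) and Tyms (0.49). Leaving out the muscle libraries left only replicate 3 of the untreated 8 h group, so no count is given for that setting.

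In exosome-treated cells at 8 h none was called against 0.5 h (limma; 2.33% of all genes were called in either direction), with 16 at an unadjusted p under 0.05, none by edgeR and 4 by DESeq2. Smallest in adjusted p was Pola1 (0.43, adjusted p = 0.0544). In batch 2 alone 17 were called, all higher, where 4.91% of all genes were called higher. The difference between the arms in the change from 0.5 to 8 h was tested as such, and none of the 42 genes nor any other gene was called (0% of all genes). Of the 42, 6 had an unadjusted p under 0.05, edgeR and DESeq2 called none, and the smallest adjusted p was 0.247 for Gins2 at -0.53. Leaving out untreated 8 h replicate 3 gave 3 calls, where 13% of all genes were called.

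Exosome-treated and untreated cells were compared at each time. None of the 42 genes was called by limma at 0.5, 2, 4 or 8 h or in the mean over the 4 times, where the shares of all genes called in either direction were 0.243%, 0.189%, 0.155%, 0.452% and 0.459%. Counts at an unadjusted p under 0.05 were 1, 0, 1, 15 and 0. They are given without the share of all genes at that p and are no result about the 42. EdgeR called none in any of these comparisons, and DESeq2 called 3 at 8 h, all lower in treated cells, and none otherwise. Medians of the 42 values were 0.018, 0.001, 0.049, -0.078 and -0.002. For the mean effect the 95% interval of a gene was typically 0.10 to either side of its value, and the intervals of all 42 genes lay between -0.27 and 0.24. At a single time the typical interval was 0.20 to either side, so single-time differences of that size were not detectable. Larger ones could be missed as well, because calls used the adjusted p: at 8 h Rpa3, at -0.48, was not called.

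Mcm5 shows how the arms lay in single libraries. At 4 h it was at 6959.9, 5126.3 and 6723.5 in untreated and 7907.9, 5631.2 and 6922.7 in treated cells, and at 8 h at 5660.2, 7599.6 and 7311.7 against 5199.5, 7260.4 and 7085.8. The arms overlapped at both times, and the mean effect of Mcm5 over the 4 times was 0.028. Mean effects were 0.017 for Cdc6, -0.052 for Pcna and 0.063 for E2f1. At 0.5 h E2f1 was the gene with every treated library (645.2, 650.2 and 717.6) above every untreated one (518.2, 634.9 and 597.0), 2.38% of the genes against 3.36% of all genes.

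The 8 h exosome comparison held the widest values, from -0.48 in Rpa3 to 0.40 in Pole. Orc6 had the smallest adjusted p (0.0804) at -0.38 ± 0.12: it was at 1365.1, 1267.7 and 1051.7 in untreated and 859.3, 955.1 and 1014.4 in treated cells, without overlap. Every treated library was below every untreated one for 8 genes, Orc6, Gmnn, Gins1, Gins2, Gins4, Pola2, Pole2 and Rpa3 (19.0%, against 7.79% of all genes), and above for none (against 5.37%). In these 8 the untreated libraries with muscle transcripts, replicates 1 and 2, held the highest values, and replicate 3 was nearer to the treated cells. Values followed length, with a rank correlation of 0.55 across the 42 genes and 0.42 across all. With the length trend removed, the correlation was 0.09 and the median -0.049. Without untreated 8 h replicate 3, the one without muscle transcripts, 16 of the 42 genes were called, 13 lower and 3 higher in treated cells, where 26.3% of all genes were called, 12.8% lower and 13.5% higher.

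Other genes of the same pathways were counted from lists, in the batch 2 comparison of late with early libraries. Of 36 further origin and fork factors 12 rose, among them Pold2 (0.29), Uhrf1 (0.27), Mcm8 (0.25) and Tipin (0.23), and the median was 0.10. Of 26 further genes of nucleotide supply 15 rose with a median of 0.18. They included Dctpp1 (0.36), Shmt1 (0.35) and Umps (0.32). In a list of 33 further G1/S regulators and E2F targets 14 rose, with a median of 0.13. The chromatin assembly gene Chaf1b was at 0.34, the checkpoint kinase gene Chek1 at 0.33, and the histone chaperone genes Nasp and Asf1b at 0.27. No gene of these lists fell.

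Of 30 genes of mitosis 12 rose, with a median of 0.09, and of 24 genes of ribosome biogenesis 6 rose, with a median of 0.08. The kinetochore gene Ndc80 (0.34 ± 0.05) and the nucleolar gene Fbl (0.38 ± 0.10) led them. The list of cyclin D and CDK4/6 differed: of 9 genes, Cdk4 rose by 0.18 ± 0.06, while Cdk6 fell by 0.55 on the log2 scale (SE 0.09, adjusted p = 0.000219) and Cdkn2b, a CDK4/6 inhibitor gene, fell by 0.58 on the log2 scale (SE 0.16, adjusted p = 0.0117). Cdk6 was between 9281.9 and 13817.0, median 11638.2, in the early and between 6261.9 and 8917.8, median 7930.6, in the late batch 2 libraries, without overlap. The difference between these lists and the 42 genes was not tested.

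In the mean exosome effect, E2f2, which encodes an E2F activator, was the only gene of these lists called. It passed the filter on low values only through treated libraries, so its call supports nothing. It was at 0 to 13.7 normalized counts, median 5.6, in treated and 0 to 1.0, median 0, in untreated libraries. In batch 1 no library from 0.5 h on was above 2.1. The untreated values are all under 3 reads, so no fold is given.

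The batches differed in level. Relative to batch 2, 31 of the 42 genes were lower in batch 1 and none was higher (73.8%, where 28.5% of all genes were called lower and 57.6% in either direction), with a median of -0.27. Pole was at -0.79 ± 0.08, Cdc6 at -0.58 ± 0.05, Mcm7 at -0.57, Tyms at -0.56 and Rfc3 and Rfc5 at -0.54. Among the 11 genes not called were Orc6 (0.06), Gmnn (0.07) and Rpa3 (0.10). The Cdc6 values of batch 1, from 365.8 to 579.7, lay entirely below those of batch 2, from 584 to 862.2.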

How the data were processed

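The submitters' processing notes list the build GRCm38.p2, the aligner STAR 2.4.2, the counter featureCounts 1.5.0, CASAVA 1.8.4, R 3.3.2 and DESeq2. For annotation release, strand setting and multi-mapping reads, settings were not given in the sources used here. Per the labels' protocols, total RNA with an integrity number above 8 went into TruSeq V2 libraries that were sequenced as paired reads. The authors deposited normalized counts, a signal that is the read count divided by 1 size factor per library. After division by each library's step, 100.0% of values were whole reads to within 0.01, with size factors from 0.401 to 1.59. Symbols and positions came from GENCODE M21 on GRCm38, where 30403 of 30608 identifiers matched, 23993 of them with the same version, and all 28 columns had a sample.

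Values were transformed as log2(normalized count + 1) and fitted with limma 3.58.1 (R 4.3.3, trend option) for the 14828 genes that reached 10 normalized counts in 3 or more libraries. A mean for each of the 9 groups plus batch left 18 residual degrees of freedom. Genes with a Benjamini-Hochberg adjusted p under 0.05, over the whole table of tested genes, were called. Recovered reads were also tested with edgeR 4.0.16 and DESeq2 1.42.0. A second model, with 1 mean per period (0 h, 0.5 and 2 h, 4 and 8 h) and batch, and the comparisons of 4 with 2 h, were added after the values were seen, as were the 2 corrections for transcript length. The length trend was a loess curve of each library's deviation on log2 transcript length. The scripts were tested on simulated data.

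The 42 genes and the lists were chosen with earlier results of these data known. Genes were named by a rule: up to 6 called genes per direction and contrast with the largest change, the largest and smallest change per role at untreated 8 h, 13 genes always, the highest and lowest level, and up to 4 called genes per other list. Others named, among them those not called, were chosen after their values were seen. One gene that the rule would name is not reported here.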

Additional observations from a re-analysis of the deposited data

Results flagged for a closer look

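With 4 libraries, the untreated 0 h group was the one checked for single libraries far from the rest. In 6 of the 42 genes 1 library stood farther from its nearest neighbour, relative to the group's range, than the 95% critical value of Dixon's test, which chance exceeds in about 1 in 20 groups. In 4 of them it was replicate 1, the batch 1 library. It was lowest for Mcm7 (3042.8 normalized counts, others 3874.4 to 4003.1), for Rfc3 (1678.6, others 2430.5 to 2568.1) and for Rfc5 (1002.2, others 1312.8 to 1364.6), and highest for Rpa2 (1049.8, others 985.1 to 994.6). Pola2 was highest in replicate 2 (1139.5, others 959.0 to 985.7), and Rfc4 was highest in replicate 3 (472.0, others 451.3 to 453.2).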

How the results depend on the processing

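Counts of called genes among the 42 are given by setting. The share of all genes called can move as well. For exosome-treated 8 h against 0.5 h it was 0.38% higher, then 0.71% with the length trend removed and 3.26% with the slope covariate. Counts given without that share, here and above for DESeq2 or at an unadjusted p, are thus no result about the 42. Without the muscle libraries some of the 9 groups held a single library, and counts for comparisons of those groups are left out. For 4 and 8 h against 0.5 and 2 h in batch 2 (33), every alternative that could be run gave between 30 and 36, leave-one-out included, with 32 under the replicate block. Untreated 8 h against 0 h (17) gave 6 without the batch term and 28 in batch 2 alone. It gave 9 with the length trend removed, 1 with the length slope as a covariate and 6 to 18 leaving out 1 library. Under that covariate Rpa3 and Rfc4 turned to -0.043 and -0.030, and Rpa3 to -0.078 for untreated 8 h against 0.5 h. The cause was not tested.

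Untreated 4 h against 0 h (0) gave 7 in batch 2 alone and 1 with the slope covariate. Untreated 4 h against 0.5 h (1) gave 4 with DESeq2, 0 without the batch term, 10 in batch 2, 5 without the muscle libraries, 4 with the trend removed, 10 with the covariate and 0 to 2 leaving out 1 library. Exosome-treated 4 h against 0.5 h (6) gave 11, 0 and 15 under the first 3 of these, 15 with the covariate and 1 to 9 leaving out 1. Untreated 8 h against 0.5 h (22) gave 8 without the batch term, 12 with the covariate and 9 (without untreated 8 h replicate 2) to 24. Exosome-treated 8 h against 0.5 h (0) gave 1 with TMM scaling, 4 with DESeq2, 2 with a filter at 50 normalized counts, 17 in batch 2, 5 with the trend removed, 12 with the covariate and 0 to 4. The difference of these changes gave 0 to 3.

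Untreated 4 h against 2 h (1) gave 0 without the batch term, 2 without the muscle libraries, 0 without the 2 libraries with few genes at 0 and 0 to 1. Exosome-treated 4 h against 2 h (2) gave 4 with TMM, total-read scaling, edgeR, the filter at 50 and the trend removed. It gave 9 with DESeq2 and 0 without the batch term. With no filter, with the replicate block and without the libraries with few genes at 0 it gave 1. Batch 2 alone gave 10, the covariate 13 and leaving out 1 library 0 to 6. The exosome effect at 8 h (0) gave 3 with DESeq2 and 0 to 16. Late against early in batch 1 (0) gave 4 with DESeq2, 8 without the muscle libraries and 1 with the trend removed. The covariate gave 6 and leaving out 1 library 0 to 4. Its difference from batch 2 (0) gave 2 with DESeq2, 11 without the muscle libraries and 0 to 16. The 8 and 11 rest on the few batch 1 libraries named above, with treated cells only among the late ones. Batch 1 against batch 2 (31) gave 30 to 33 leaving out 1.

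Same-numbered libraries of the 2 arms did not deviate together (correlation after the batch term -0.25 to 0.276), so the numbers were not taken as pairs. At 2 h replicates 1 and 2 of one arm are from a different batch than those of the other.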
